A study of Mus musculus with 2 samples.

Results

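Complement is a set of plasma and membrane proteins that tags particles and dying cells for removal, and 9 of its genes were followed here through the cells of pancreatic tumors in mice. The genes are C1qa, C1qb, C1qc, C3, C4b, Cfb, Serping1, C3ar1 and C5ar1, taken by symbol from the 32285 genes of the feature lists, in which all 9 were found and each occurred 1 time. The tumors were grown by injecting KPC cells, a mouse pancreatic cancer line from a genetically engineered model with a Pdx1-driven Cre, into the pancreas of host mice. The FLOX library came from a host with floxed MCT1 (gene symbol Slc16a1, a lactate transporter). The library labelled MCT1-KO came from a host in which a tamoxifen-dependent Cre, driven by the collagen promoter Col1a2, was meant to delete MCT1 in pancreatic stellate cells (PSCs), so that any host cell with Col1a2 activity may have been reached, and the injected cancer cells were a separate line. Each condition was 1 library of dissociated, unsorted tumor, measured as unique molecular identifiers (UMIs) per gene and cell, and the number of animals behind it was not given in the sources used here. The study's methods give an age for C57BL/6 mice but not for these conditional hosts, and they state that all mice were male. Tamoxifen or corn oil was injected before the KPC cells. The sources used here do not state which of them the FLOX host received or whether it carried Cre. Exposure to tamoxifen may thus also differ between the libraries. With 1 library per condition there was no replicate check and no test, and every interval below covers counting error only.

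As background, complement starts in the classical pathway when C1q, built from chains A, B and C, binds its target and activates the proteases C1r and C1s. These cut C4 and C2, while factor B (Cfb) serves the alternative pathway, and both routes lead to the cutting of C3, the central component. C1 inhibitor (Serping1) stops C1r and C1s. The released fragments C3a and C5a are sensed by the receptors C3aR (C3ar1) and C5aR1 (C5ar1). Much of the plasma pool is made in the liver, but macrophages are a main source of C1q in tissue, and fibroblasts and epithelial cells can make C3, C4 and factor B when inflamed.

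On GRCm38, by Ensembl ID, the 9 genes are protein coding and lie on the minus strand. C1qb, C1qc and C1qa sit side by side on chromosome 4 within 18.675 kb (chr4:136880129-136898803), and each has 3 exons. C4b (chr17:34728380-34743882) and Cfb (chr17:34856374-34862518) lie in a shared 134.139 kb stretch of chromosome 17, on which C3 (chr17:57203970-57228136) also lies. Serping1 is at chr2:84765387-84775444, C3ar1 at chr6:122847138-122856161 and C5ar1 at chr7:16246743-16259540. C4b has a near-identical neighbour, C4a, so reads of the pair may have been split or dropped in counting: C4a held 49 UMIs in all kept cells against 28393 for C4b.

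The RefSeq promoter table of GRCm38.p6, which gives 250 bases before and 50 after a gene start, held 5 of the 9 genes. The promoters of C1qb and C1qc are shown because both genes had their highest level in macrophage/monocyte-like cells, and that of C3 because it had its highest level in PSC-like cells. All are on the minus strand and written 5′ to 3′: C1qb at chr4:136886151-136886450, C1qc at chr4:136892865-136893164 and C3 at chr17:57228087-57228386. Capitals mark matches, on either strand, to the core of the myeloid factor PU.1 (GAGGAA), the C/EBP half-palindrome TTGCNNAA, the interferon-response element ISRE, by name, and a degenerate NF-kB site, and no matches overlapped.
C1qb: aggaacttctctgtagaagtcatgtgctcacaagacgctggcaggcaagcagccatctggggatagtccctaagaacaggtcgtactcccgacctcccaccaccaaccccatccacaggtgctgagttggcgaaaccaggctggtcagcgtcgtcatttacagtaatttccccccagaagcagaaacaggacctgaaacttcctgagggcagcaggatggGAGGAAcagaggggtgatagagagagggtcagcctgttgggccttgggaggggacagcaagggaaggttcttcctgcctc
C1qc: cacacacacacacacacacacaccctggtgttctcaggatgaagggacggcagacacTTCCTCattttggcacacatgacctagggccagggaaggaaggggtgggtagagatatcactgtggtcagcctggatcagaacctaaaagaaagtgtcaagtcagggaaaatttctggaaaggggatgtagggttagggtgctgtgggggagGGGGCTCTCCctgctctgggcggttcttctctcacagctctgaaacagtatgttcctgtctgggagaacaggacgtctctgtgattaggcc
C3: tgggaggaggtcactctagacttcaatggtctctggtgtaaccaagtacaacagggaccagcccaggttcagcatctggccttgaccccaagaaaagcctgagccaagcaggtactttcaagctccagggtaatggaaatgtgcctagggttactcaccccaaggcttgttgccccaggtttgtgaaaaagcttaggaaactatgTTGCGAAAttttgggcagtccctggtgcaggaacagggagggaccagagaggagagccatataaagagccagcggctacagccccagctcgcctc
C1qb had 1 match to GAGGAA at -30 to -25 from the start, and C1qc had 1 on the opposite strand at -193 to -188 and 1 to the NF-kB site at -41 to -32. Distances are from the RefSeq start. By Ensembl C1qc begins further upstream, at 136893065, so the NF-kB match lies within the Ensembl gene. C3 had 1 match to TTGCNNAA at -45 to -38. The promoters of C3ar1 and C5ar1, also in the table, held no match to any of the 4 motifs and are not shown. Of 27025 promoters of the same length, 28.3% held GAGGAA, 10.8% TTGCNNAA, 3.49% the ISRE and 8.18% the NF-kB site, so the matches are a description and not evidence of binding.

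The FLOX library gave 8739 cells and the library labelled MCT1-KO 11689, with medians of 4069 and 3706 UMIs per cell, and 59 barcodes occurred in both. Cells fell into 10 named classes, while 24.7% and 25.7% of cells stayed unnamed, with medians of 1121.5 and 1033 UMIs. The largest unnamed cluster, of 2940 cells, scored highest for tumor cell-like markers. It stayed unnamed for its few UMIs per cell and the lack of such markers among its leading genes. Tumor cell-like cells (2106 and 3678) carried 3.49 and 1.91 CPM of 4 Y-linked genes, where CPM is UMIs scaled to a class total of 1000000. PSC-like cells (234 and 428) carried 234 and 205 CPM of them, and macrophage/monocyte-like cells (2553 and 2221) 174 and 138 CPM. Acinar-like cells held 0 UMIs of these genes in FLOX and 13.2 CPM in the other library, so the genes did not set every host class apart from the injected line. Slc16a1, the gene named by the label, was not lower in PSC-like cells of the library labelled MCT1-KO, with 57 UMIs in FLOX and 113 there, or 25.5 and 35.4 CPM (ratio 1.39, 95% interval 1.00 to 1.94). The study instead reports lower MCT1 in knockout PSCs from its own reading of the single-cell data. It reports the same from protein and RNA of primary PSCs and from staining of pancreas. The reason for the difference was not tested. RNA free in the suspension was read from barcodes of 10 to 100 UMIs, and genes of acinar cells made up far more of it in the library labelled MCT1-KO.

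The 9 genes divided among 3 cell classes. The C1q genes and C3ar1 were highest in macrophage/monocyte-like cells, C5ar1 in neutrophil-like cells, and C3, C4b, Cfb and Serping1 in PSC-like cells. Of 12549 genes with 200 or more UMIs, 10.4% had their highest level in PSC-like cells, against 4 of the 9 complement genes. For macrophage/monocyte-like cells the share of all genes was 6.26% against 4 of 9, and for neutrophil-like cells 10.5% against 1 of 9.

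**Figure D1:**
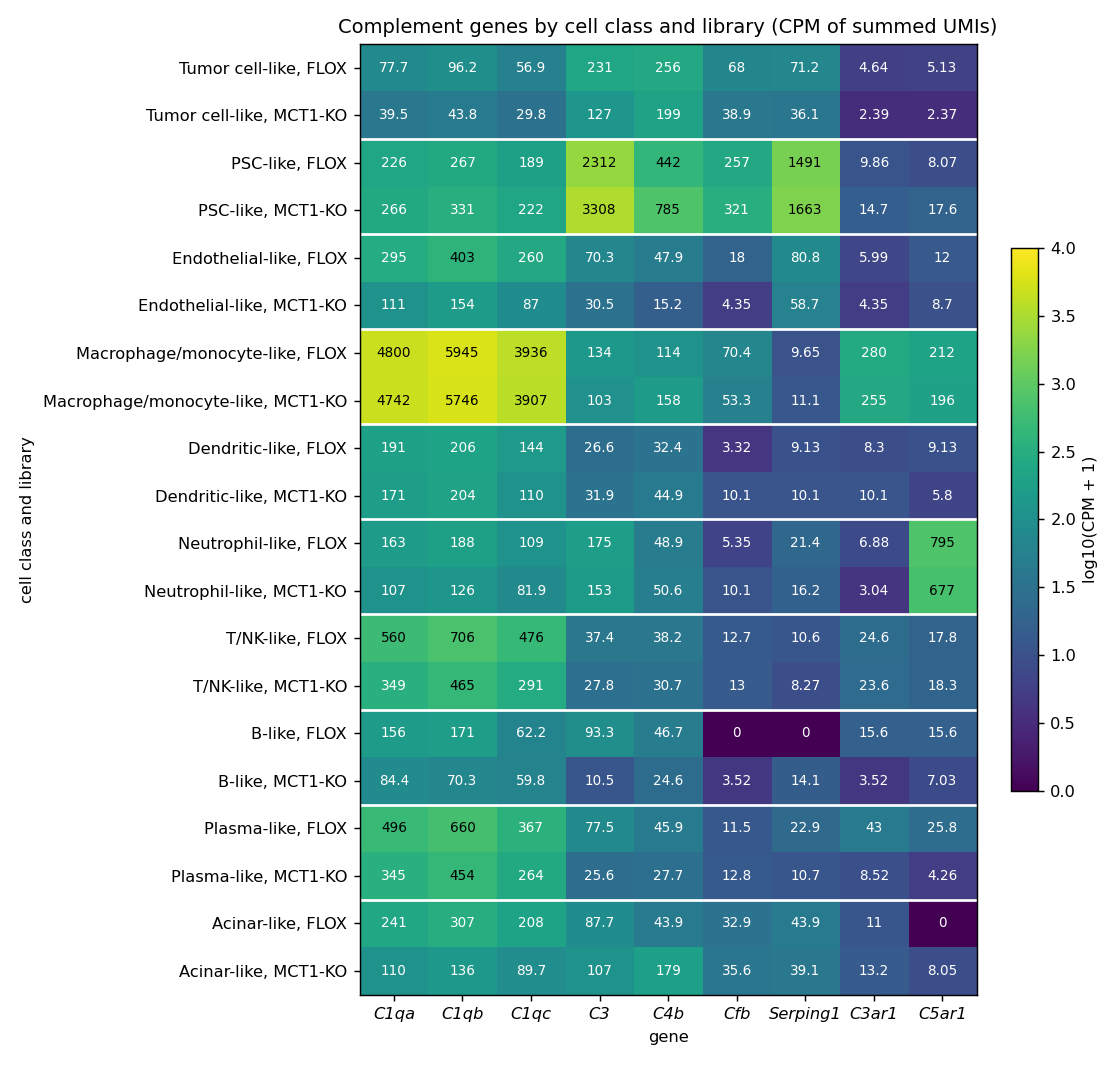
Level of each complement gene (columns) in each of 10 cell classes and both libraries (rows), as CPM of summed UMIs printed in each cell and coloured by log10(CPM + 1). The C1q genes stand out in macrophage/monocyte-like cells at 3907 to 5945 CPM, and C3 and Serping1 in PSC-like cells at 1491 to 3308 CPM.

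The C1q genes, which encode the recognition unit of the classical pathway, were almost even between the libraries in macrophage/monocyte-like cells. C1qa was at 4800 CPM in FLOX and 4742 CPM in the library labelled MCT1-KO. C1qb was at 5945 and 5746 CPM. C1qc was at 3936 and 3907 CPM. Summed, the chains gave a ratio of the library labelled MCT1-KO to FLOX of 0.980 (0.974 to 0.987), and other processing gave values on both sides of 1 (0.979 to 1.09). In this class 93.9% and 95.2% of cells held UMIs of all 3 chains, and 18 of 2553 and 24 of 2221 cells held none. The median cell held 26 and 24 UMIs of C1qa, 33 and 29 of C1qb and 22 and 20 of C1qc.

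Macrophage/monocyte-like clusters were not equal in C1q. The cluster led by Apoe and Mertk, genes of tissue macrophages that clear dying cells, held C1qb at 6559 CPM in FLOX and 6845 CPM in the library labelled MCT1-KO. The cluster led by Arg1, an arginine-degrading enzyme of tumor macrophages, held 5457 and 5791 CPM. The cycling cluster held 6168 and 5968 CPM. A cluster of few UMIs per cell led by Acp5 held 2886 and 2522 CPM, the lowest of the 4. The ratio of C1qb between the libraries was above 1 in the first and second of these (1.04, 1.03 to 1.06, and 1.06, 1.04 to 1.08) and below 1 in the low-UMI cluster (0.874, 0.831 to 0.919) and the cycling cluster (0.968, 0.939 to 0.997). The class ratio near 1 thus covers small differences of both signs.

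Outside macrophage/monocyte-like cells C1q was found at low level in every named class. In the 20 sets of cells or empty barcodes with 300 or more C1q UMIs the chains kept nearly the same proportions: C1qa made up 30.8% to 36.1% of C1q UMIs, C1qb 38.1% to 43.3% and C1qc 22.7% to 27.7%. Tumor cell-like cells had 231 CPM of summed C1q in FLOX and 113 CPM in the library labelled MCT1-KO, which was 6.3% and 4.6% of the level in empty barcodes. Thinned to 1000 UMIs per cell, 8.75% and 3.59% of tumor cell-like cells held C1qa, below the 15.7% and 8.73% of T/NK-like cells, lymphocytes that do not make C1q. The median depths were 17976.5 and 16149.5 UMIs in tumor cell-like cells and 3082 and 2474 in T/NK-like cells. A T/NK-like cluster of 34 and 17 cells held C1qb at 4178 and 4902 CPM, near the macrophage level, and without it the class fell from 706 to 220 CPM in FLOX and from 465 to 102 CPM in the library labelled MCT1-KO.

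C3, the protein on which all complement pathways meet, was foremost a gene of PSC-like cells. It was at 2312 CPM (2249 to 2376) in PSC-like cells of FLOX and at 3308 CPM (3245 to 3372) in the library labelled MCT1-KO. In tumor cell-like cells it was at 231 CPM (226 to 236) and 127 CPM (124 to 130). PSC-like cells thus held C3 10-fold above tumor cell-like cells in FLOX and 26.0-fold in the other library. Neutrophil-like cells followed with 175 CPM (153 to 199) and 153 CPM (129 to 179), and macrophage/monocyte-like cells with 134 and 103 CPM. In the library labelled MCT1-KO the intervals of neutrophil-like and tumor cell-like cells overlapped, and so did those of macrophage/monocyte-like and acinar-like cells (107 CPM, 92.1 to 123).

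PSC-like cells were 2.68% and 3.66% of all cells kept, but they held 32.1% of the C3 UMIs of FLOX cells and 52.6% of those in the library labelled MCT1-KO. Tumor cell-like cells held 47.4% and 34.4%. These shares leave out the barcodes over the gene limit, which were more in FLOX. Within the PSC-like class C3 was concentrated: 18 of 234 cells in FLOX and 54 of 428 in the other library held 50% of its UMIs, and single cells reached 296 and 169 UMIs. The stellate cluster led by Col1a2, Sfrp1 and Cxcl13 held C3 at 2431 and 3463 CPM, while the small mural cluster led by Rgs5 and Myh11, genes of pericytes and smooth muscle, held it at 27 and 28 CPM. The mural cells, 15 and 24 in number, still held Serping1 at 921 and 1297 CPM.

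**Figure D2:**
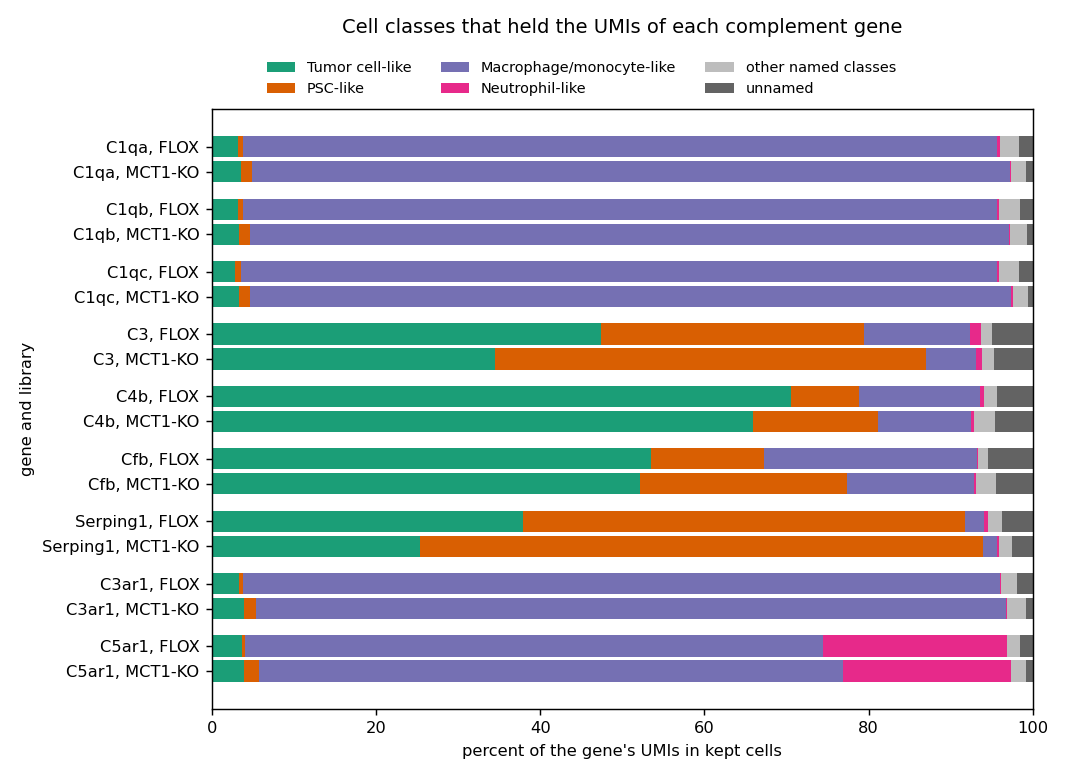
Share of each gene's UMIs (x axis, percent of its UMIs in kept cells) that lay in each cell class, 1 bar per gene and library. C1q and C3ar1 UMIs lay to over 91% in macrophage/monocyte-like cells, while UMIs of C3, C4b, Cfb and Serping1 were spread over tumor cell-like, PSC-like and, for C3, C4b and Cfb, macrophage/monocyte-like cells, which in FLOX held 26.0% of Cfb UMIs.

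C4b, the target that C1s cuts, was at 442 CPM (415 to 471) in PSC-like cells of FLOX and 785 CPM (755 to 817) in the library labelled MCT1-KO. Tumor cell-like cells held 256 CPM (251 to 262) and 199 CPM (196 to 203). Because tumor cell-like cells were many and deep, they held most C4b UMIs, 70.5% in FLOX and 65.9% in the other library. Macrophage/monocyte-like cells held 114 and 158 CPM. Acinar-like cells of the library labelled MCT1-KO held 179 CPM (159 to 200), an interval that met that of tumor cell-like cells, whereas in FLOX only 4 UMIs lay in 50 acinar-like cells.

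Cfb, the protease precursor of the alternative pathway, was at 257 CPM (237 to 279) in PSC-like cells of FLOX and 321 CPM (301 to 341) in the library labelled MCT1-KO. Macrophage/monocyte-like cells held 70.4 CPM (66.2 to 74.7) and tumor cell-like cells 68.0 CPM (65.2 to 70.8) in FLOX, levels whose intervals overlapped. In the library labelled MCT1-KO they held 53.3 and 38.9 CPM. Serping1, which shuts off C1r and C1s, was at 1491 CPM (1441 to 1543) in PSC-like cells of FLOX and 1663 CPM (1618 to 1708) in the other library. Endothelial-like cells came next in both, with 80.8 CPM (60.7 to 105) and 58.7 CPM (38.7 to 85.5). Tumor cell-like cells had 71.2 CPM (68.4 to 74.1), within the endothelial interval, and 36.1 CPM (34.6 to 37.8). Macrophage/monocyte-like cells, rich in C1q, held Serping1 at 9.65 and 11.1 CPM, among the lowest levels of any class.

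C3, C4b and Serping1 were found together in 53.0% of PSC-like cells in FLOX and 62.9% in the library labelled MCT1-KO, and in 30.2% and 15.7% of the deeper tumor cell-like cells. Thinned to 1000 UMIs, 54.6% and 69.8% of PSC-like cells held C3, against 18.2% and 11% of tumor cell-like cells and 3.17% and 0.873% of T/NK-like cells. Unthinned, the C3 shares were 77.8% and 84.3% in PSC-like, 71.9% and 59.4% in tumor cell-like and 11.3% and 6.01% in T/NK-like cells. Serping1 was held by 66.7% and 62.6% of thinned PSC-like cells and by 6.18% and 3.56% of tumor cell-like cells. Free RNA was set beside these levels by taking all C1q UMIs of a class as free RNA. Tumor cell-like cells would then hold 14.7 and 9.9 CPM of C3 from this source, against 231 and 127 CPM measured, and 5.0 and 3.1 CPM of Serping1, against 71.2 and 36.1 CPM. Scaled on acinar genes instead, free RNA would give them 28.2 and 9.45 CPM of C3 and 9.63 and 2.94 CPM of Serping1.

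**Figure D3:**
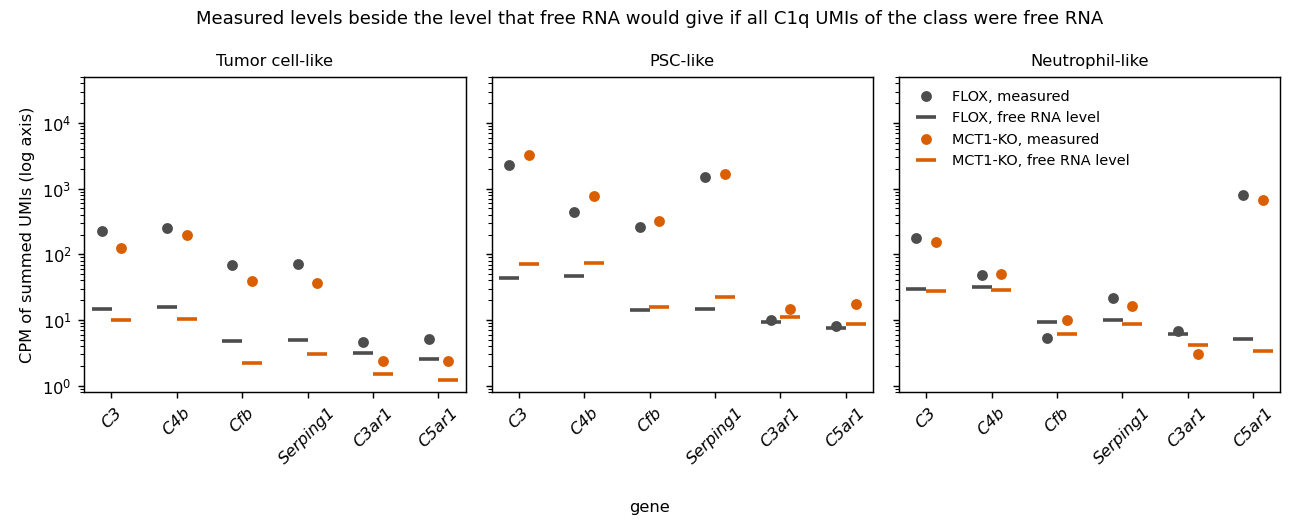
Measured CPM (points, log axis) of 6 genes in 3 cell classes and both libraries, beside the level that free RNA would give (dashes) if all C1q UMIs of the class were free RNA. C3, C4b, Cfb and Serping1 lie above the dashes in tumor cell-like and PSC-like cells, as does C5ar1 in neutrophil-like cells, while both receptors in PSC-like and tumor cell-like cells lie much closer to them.

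Of the receptors, C5ar1, which draws neutrophils and macrophages toward C5a, was highest in neutrophil-like cells. It was at 795 CPM (747 to 844) in FLOX and 677 CPM (627 to 730) in the library labelled MCT1-KO, and at 212 and 196 CPM in macrophage/monocyte-like cells. Because macrophages were more numerous and deeper, they still held 70.4% and 71.2% of C5ar1 UMIs, and neutrophil-like cells 22.4% and 20.5%. Thinned to 1000 UMIs, 52.8% and 46.7% of neutrophil-like cells held C5ar1, 17.9% and 18.1% of macrophage/monocyte-like cells and 0.933% and 1.75% of T/NK-like cells.

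C3ar1, the receptor of C3a, was at 280 CPM (272 to 288) in macrophage/monocyte-like cells of FLOX and 255 CPM (246 to 265) in the library labelled MCT1-KO. Neutrophil-like cells held 6.88 and 3.04 CPM, with 9 and 3 UMIs, close to the 6.22 and 4.22 CPM that free RNA would give. The receptors thus differed in their cells: at full depth, 43.2% and 38.0% of macrophage/monocyte-like cells held both, 23.9% and 25.6% C3ar1 alone and 13.2% and 15.3% C5ar1 alone. Of neutrophil-like cells, 65.6% and 51.7% held C5ar1 alone, and 0.659% and 0.134% held both. C3ar1 was at 293 and 297 CPM in the Apoe and Mertk cluster and at 303 and 292 CPM in the Arg1 cluster. C5ar1 was higher in the Arg1 cluster, at 260 and 299 CPM, than in the Apoe and Mertk cluster, at 199 and 180 CPM.

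Between the libraries, 8 of the 9 complement genes were lower by over 1.5-fold in tumor cell-like cells of the library labelled MCT1-KO, where 7.81% of 13171 genes tested were lower and 6.08% higher by that size. No complement gene was higher. Of the 8, C5ar1 turned to 5.15 with free RNA subtracted by acinar genes, and C3 came to 0.768, within 1.5-fold, when the libraries were clustered without integration. The same subtraction left nothing in FLOX for C1qa, C1qb, C1qc and C3ar1. No ratio was formed for these 4 genes, so their calls did not hold in that setting. The median ratio was 0.516 over the 9 genes and 1.01 over all genes tested. For C3 the ratio was 0.551 (0.533 to 0.569), for Cfb 0.573 (0.539 to 0.608) and for Serping1 0.507 (0.478 to 0.539). C4b had a smaller difference, 0.778 (0.756 to 0.801), and it turned to 1.39 without integration, which left 834 FLOX cells in the class. The 3 C1q genes had ratios of 0.455 to 0.524 in this class. Summed, they stood at 6.29% and 4.56% of their level in empty barcodes, and acinar genes at 12.1% and 4.36% of theirs. In FLOX C1q was thus below the free RNA estimate by acinar genes. C3ar1, at 4.64 and 2.39 CPM, had 0.516, and C5ar1, at 5.13 and 2.37 CPM, had 0.463, where free RNA would give 3.12 and 1.51 CPM of C3ar1 and 2.54 and 1.22 CPM of C5ar1 by C1q. By acinar genes it would give 6.02 and 1.45 CPM of C3ar1 and 4.89 and 1.17 CPM of C5ar1, so that in FLOX C3ar1 was below this estimate and C5ar1 just above it. In empty barcodes C1q was at 3672 and 2478 CPM, a ratio of 0.675 (0.668 to 0.682).

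The lower level of C3, Cfb and Serping1 in tumor cell-like cells held within each of the 5 clusters given this name. C3 ratios ran from 0.384 (0.356 to 0.414) in the cluster led by Msln and Krt19, genes of epithelial-type tumor cells, to 0.707 (0.608 to 0.824) in the cycling cluster. Cfb ratios ran from 0.487 to 0.664 and Serping1 ratios from 0.427 to 0.636, and all 15 intervals of these genes lay below 1. The clusters share the same libraries and are no replicates, and the share of all genes lower in each of them was not counted. C4b differed more between clusters, from 0.619 (0.573 to 0.667) in the Msln and Krt19 cluster to 1.01 (0.957 to 1.06) in the cluster led by the cytokine genes Lif and Il11. The cluster led by the interferon-induced genes Gbp6 and Cxcl10 had the highest C3 of the 5 in both libraries, at 304 and 192 CPM, and the highest Cfb, at 114 and 75 CPM. Its C4b was also highest in FLOX, at 403 CPM, but at 257 CPM in the other library it lay near the clusters of Lif and Enpp2, at 277 and 270 CPM. The cycling cluster had the lowest C4b, at 85 and 79 CPM.

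**Figure D4:**
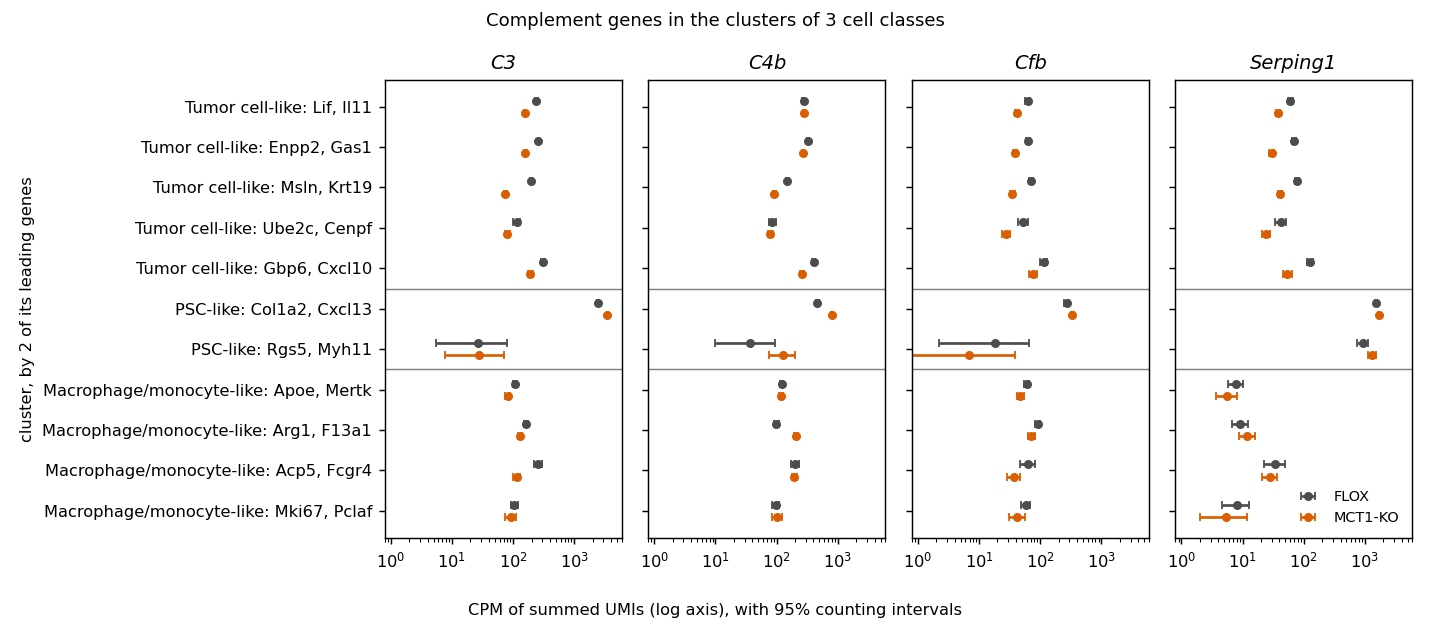
CPM of summed UMIs (x axis, log scale) of 4 genes in each cluster (rows) of the tumor cell-like, PSC-like and macrophage/monocyte-like classes, with 95% counting intervals. In all 5 tumor cell-like clusters C3, Cfb and Serping1 lie lower in the library labelled MCT1-KO, and the Col1a2 cluster lies to the right of every tumor cell-like cluster.

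Other gene groups moved in tumor cell-like cells as well. Of 19 interferon-response genes tested, 14 were lower by over 1.5-fold in the library labelled MCT1-KO and none higher, and their summed level was 2294 CPM in FLOX and 1291 CPM there. Of 12 heat shock and dissociation genes, 10 were lower, with 17824 and 8570 CPM. The summed levels of both groups were also lower there in every tumor cell-like cluster. Of 17 acute phase and NF-kB genes, 3 were higher and none lower, but their median ratio was 0.88 and their summed level was 7590 and 6245 CPM. All 10 acinar genes were higher, with 41.8 and 798 CPM. The part of these groups in the complement ratios was not tested.

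In PSC-like cells, by contrast, ratios lay above 1 and 2 of the 9 genes were higher by over 1.5-fold in the library labelled MCT1-KO, where 10% of 8609 genes were higher and 11.2% lower. No complement gene was lower, and the median ratio was 1.25. C4b had a ratio of 1.77 (1.65 to 1.91). C3 had 1.43 (1.38 to 1.48), Cfb 1.25 (1.12 to 1.38) and Serping1 1.12 (1.07 to 1.16). C3ar1, on 22 and 47 UMIs, had 1.495 (0.883 to 2.61), an interval that holds 1, and ran from 0.653 to 6.06 over the other settings. The other gene past 1.5-fold was C5ar1, at 2.18 (1.26 to 3.94), on 18 and 56 UMIs or 8.07 and 17.6 CPM, where free RNA would give 7.51 and 8.82 CPM, and its ratio was 0.998 without the cells of highest doublet score and 15.6 with free RNA subtracted by C1q. Summed C1q also had a ratio of 1.20 (1.12 to 1.28) in this class, and that of C1qa was 0.741 without those cells. The C4b ratio was 1.80 without those cells. The call did not hold where the class itself was drawn otherwise: with no upper limit on genes per cell the ratio was 1.07, and with cells classed by their own marker UMIs 1.08, in classes whose Y-linked level of 20.9 and 23.8 CPM was far below that of PSC-like cells; Cfb fell to 0.853 and 0.949 there, while C3 stayed above 1. Under other settings C3 reached up to 1.75 and Cfb up to 1.52, both past 1.5-fold. Of 12 heat shock genes 6 were lower in PSC-like cells, and of 17 acute phase and NF-kB genes 6 were higher and 2 lower. All 10 acinar genes were higher, with 108 and 2094 CPM, and of 15 interferon-response genes 1 was higher and 3 lower. The part of these groups was not tested.

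**Figure D5:**
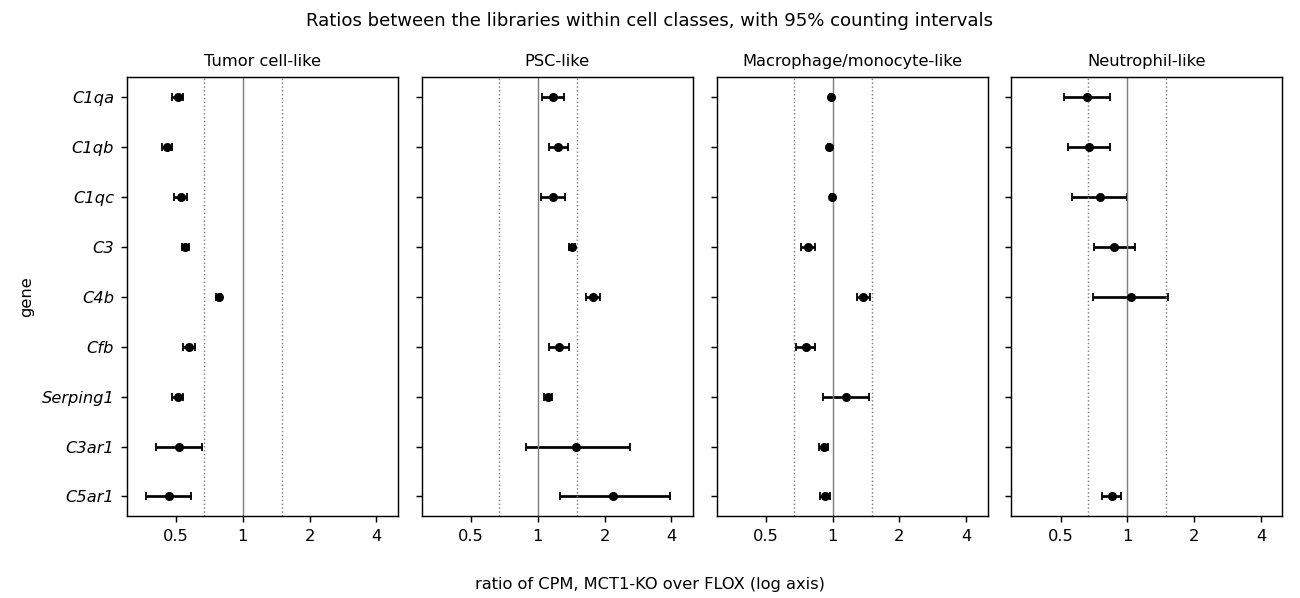
Ratio of CPM, library labelled MCT1-KO over FLOX (x axis, log scale), for each complement gene in 4 cell classes, with 95% counting intervals. Solid lines mark 1 and dotted lines 1.5-fold either way, and genes with under 50 UMIs in a class are left out. All 9 points lie left of 1 in tumor cell-like cells and right of 1 in PSC-like cells, where the interval of C3ar1 holds 1.

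In macrophage/monocyte-like cells no complement gene passed 1.5-fold in either direction, where 9.18% of 11402 genes were higher and 9.12% lower. C4b had the highest ratio in this class, 1.38 (1.29 to 1.47). Subtracting free RNA by acinar genes took C4b to 5.60 and C3 to 1.53, both past 1.5-fold. By cluster, the difference in C4b lay in the Arg1 cluster. There C4b was at 99 CPM in FLOX and 206 CPM in the library labelled MCT1-KO, a ratio of 2.07 (1.85 to 2.32), while the other 3 clusters had ratios of 0.965 to 1.05 with intervals that held 1. In the Arg1 cluster 264 of 747 cells and 301 of 708 cells held a C4b UMI, and the most in a single cell was 9 and 22. C3 and Cfb were lower in this class, at 0.772 (0.719 to 0.829) and 0.757 (0.685 to 0.836), and below 1 in all 4 clusters, with intervals that held 1 in the cycling cluster. The same subtraction turned Cfb to 1.09. C3ar1 and C5ar1 had ratios of 0.912 (0.871 to 0.956) and 0.927 (0.878 to 0.978), which came to 1.00 and 1.02 without the cells of highest doublet score. Other groups moved in this class too. Of 12 heat shock genes 9 were lower by over 1.5-fold (11232 and 5576 CPM summed), and of 19 interferon-response genes 6 were lower (3268 and 2637 CPM). Of 17 acute phase and NF-kB genes 5 were higher (6387 and 7967 CPM), and all 10 acinar genes were higher (125 and 2397 CPM). In the Arg1 cluster the acute phase and NF-kB genes summed to 9424 and 15428 CPM. The part of these groups in the complement ratios was not tested.

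In neutrophil-like cells 6 complement genes had 50 or more UMIs. C1qa was lower by over 1.5-fold, at 0.659 (0.517 to 0.836), but at 1.12 with cells classed by their own marker UMIs, and none was higher, where 10.5% of 5036 genes were lower and 15.3% higher. C5ar1 had a ratio of 0.852 (0.772 to 0.940) and C3 one of 0.873 (0.706 to 1.08), an interval that holds 1 (1.77 with free RNA subtracted by acinar genes). C3 in these cells, at 175 and 153 CPM, was above the 29.2 and 27.6 CPM that free RNA would give by C1q and above the 135 and 81.7 CPM it would give by acinar genes. At full depth C3 lay in 21.5% and 16.0% of neutrophil-like cells, with at most 7 UMIs in a cell in either library. Of 11 heat shock genes tested in this class 9 were lower (10147 and 4465 CPM summed), of 18 interferon-response genes 11 were lower and 2 higher, and all 10 acinar genes were higher (199 and 6897 CPM). Of 15 acute phase and NF-kB genes 2 were higher and 3 lower, and the part of these groups was not tested.

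Of 43 other genes of the complement system, 24 reached 20 CPM in a named class over both libraries pooled, and 10 of these were highest in PSC-like cells by the pooled level. The share of all genes with 200 or more UMIs that were highest there was 10.4% of 12549. The 24 had passed a limit on the level in their own highest class, so the 2 shares are not alike. Cfd is among the 10 through the library labelled MCT1-KO alone. Among the 10 were also the C1 proteases C1ra (206 and 258 CPM in FLOX and the library labelled MCT1-KO) and C1s1 (420 and 369 CPM), the C4 partner C2 (98.2 and 180 CPM), the regulator clusterin (Clu, 809 and 782 CPM), and the scavenger collectin Colec12 (212 and 187 CPM). The terminal component C7 was at 30.0 and 176 CPM, a ratio of 5.85 (4.53 to 7.65). Cfd, which encodes adipsin, the protease that cuts factor B and a product of fat cells, had no UMI in the 234 PSC-like cells of FLOX and 2415 UMIs in the other library. All kept cells together held 15 Cfd UMIs in FLOX and 2923 in the other library. The 2415 UMIs lay in 20 cells, and 14 cells of that library's PSC-like class held the fat-cell hormone gene Adipoq. Without the 1 and 21 cells that held Cfd or Adipoq, the C4b ratio was 1.73 and the Serping1 ratio 1.11. Cd59a and Vtn also had their highest level in PSC-like cells.

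The other named genes lay mostly with immune and vascular cells, again by pooled level. Properdin (Cfp), which stabilizes the alternative C3 convertase, was highest in macrophage/monocyte-like cells at 226 and 173 CPM. Itgb2, a chain of complement receptor 3, was at a like level in neutrophil-like (150.2 CPM pooled) and macrophage/monocyte-like cells (144 CPM). Neutrophil-like cells were highest for its partner chain Itgam (319 and 334 CPM), for the second C5a receptor C5ar2 (30.6 and 48.6 CPM) and for the ficolin Fcnb (81.7 and 10.1 CPM). Endothelial-like cells were highest for Cd93 (572 and 635 CPM), B-like cells for Cd55 and dendritic-like cells for Itgax. For Cr1l, Thbd and Calr the classes lay close together, at 88.7 CPM in endothelial-like against 87.1 CPM in neutrophil-like cells for Cr1l, and Cd46 and Cr2 had few UMIs in B-like cells, so no order is read for these genes. The lectin-pathway protease gene Masp1 was highest in tumor cell-like cells, at 26.6 and 16.6 CPM, a ratio of 0.62 (0.57 to 0.69). Of the terminal pathway, C8a had no UMI in kept cells, and Hc, the gene of C5, had 8 UMIs, so RNA of the C5 precursor was close to undetectable at this depth. Of the 43 genes, 18 had 50 or more UMIs in tumor cell-like cells, and 5 of these were lower and 2 higher by over 1.5-fold, where 7.81% of all genes were lower and 6.08% higher. In PSC-like cells 18 had 50 or more UMIs, and 6 of these were higher and 3 lower, where 10% of all genes were higher and 11.2% lower.

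Over 47 sums of cells by cluster and library, which share the 2 libraries and differ in depth, the genes most like C1qa, C1qb and C1qc in log2 level were macrophage genes, led by Apoe with Pearson's r of 0.982, 0.983 and 0.975. The genes nearest C3ar1 were Msr1 (0.971), Fcgr1 (0.967) and Apoc2 (0.950), and those nearest C5ar1 were Igsf6 (0.959), Sirpb1c (0.953) and Cd300ld (0.951). Serping1 was most like the stromal genes Fxyd1 (0.926), Col12a1 (0.909) and Col5a2 (0.907). C3 had no near match, with 0.811 for Ccbe1, 0.797 for Lbp and 0.796 for S100a1. C4b was nearest to Sdc4 (0.881), Hk2 (0.877) and C1ra (0.871), and Cfb to C1ra (0.847), Sdc4 (0.792) and Vkorc1 (0.787). Among the 9 genes, the C1q genes were closest to each other (0.993 to 0.996) and then to C3ar1 (0.945 to 0.958). C4b and Cfb (0.842), C3 and C4b (0.806) and C3 and Cfb (0.80) came next. Serping1 ran with C3 (0.597), C4b (0.557) and Cfb (0.505) and against C1qa (-0.338).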

How the data were processed

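The authors deposited raw UMI counts per gene and barcode of 2 libraries made with a microwell kit that reads the 3' part of transcripts, per the labels. The study's methods name droplet kits instead. The processing notes name Seurat 4.0.0 and GRCh38, although the gene IDs are mouse, so the build of the files is not known and GRCm38 positions were joined by gene ID. Barcodes with 500 or more UMIs, 200 to 5000 genes and up to 8% mitochondrial UMIs were kept. Cells were clustered in R 4.3.3 with Seurat 5.3.0 (log-normalization, CCA integration, 2000 variable genes without complement genes, UMI number regressed out, 20 dimensions, resolution 0.8). A cluster was named from fixed markers where 3 or more were found in 10% of its cells. The best class score also had to pass a set level and a set lead over the next. No other class could have more markers among the 10 leading genes. Clusters of few UMIs per cell with no marker of their best class among those genes stayed unnamed. Tumor cell-like clusters also had to hold under 10 CPM of Ddx3y, Eif2s3y, Uty and Kdm5d together. These thresholds were set after the clusters were seen. The markers defining a class are no results here.

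UMIs were summed per class and library, divided by the class total and given as CPM with exact Poisson intervals. Ratios (library labelled MCT1-KO over FLOX) have conditional exact binomial intervals, and shares have Clopper-Pearson intervals, all at 95%. The ratio intervals were tried on simulated Poisson counts. These share the assumption of the intervals and hold no variation between cells or libraries, so the trial cannot show how the intervals cover such variation. No test was run, since 1 library per condition leaves no replicate. A gene counted as higher or lower past 1.5-fold, with 50 or more UMIs in the class. Shares of cells with a UMI that are called thinned were taken after thinning each cell to 1000 UMIs. All other shares and counts of cells with a UMI are at full depth. Free RNA was read from barcodes of 10 to 100 UMIs. Doublets were scored with scrublet in scanpy 1.11.5, whose own threshold marked 109 and 242 cells. They were not removed, and leaving out the highest 8% of scores (699 and 935 cells) was an alternative.

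The 9 genes, the other 43 complement genes and the interferon, acute phase, heat shock and acinar lists were chosen with earlier results of these data known. Other complement genes were named at 20 CPM or more in a named class of 50 or more cells, with libraries pooled, except for an item not reported here, and the 3 genes most like each of the 9 were named by Pearson's r of log2(CPM + 10) over sums of 20 or more cells. Alternatives chosen after seeing the data were subtraction of free RNA by C1q, leaving out cells with Cfd or Adipoq, leaving out the low-UMI macrophage cluster and weighting clusters equally.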

Additional observations from a re-analysis of the deposited data

Results flagged for a closer look

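For 8 of the 9 complement genes the ratio of the library labelled MCT1-KO to FLOX lay below 1 in tumor cell-like cells and above 1 in PSC-like cells, with both counting intervals clear of 1. With 1 library per condition the difference between the classes was not tested. The share of all genes with this pattern was not counted, so the count of complement genes has no background to be read against. C3 had 0.551 in tumor cell-like and 1.43 in PSC-like cells, and C4b 0.778 and 1.77. Cfb had 0.573 and 1.25, and Serping1 0.507 and 1.12. The C1q genes, which both classes held at low level, had 0.508 and 1.17 (C1qa), 0.455 and 1.24 (C1qb) and 0.524 and 1.17 (C1qc). C1qa also lay below 1 in endothelial-like (0.376), acinar-like (0.455), T/NK-like (0.623), neutrophil-like (0.659) and dendritic-like cells (0.895). C5ar1 had 0.463 and 2.18 on few UMIs, and its tumor cell-like value turned to 5.15 after removal of free RNA by its acinar genes. The PSC-like values of C1qa, C1qb, C1qc and C5ar1 lay below 1 once cells of the highest doublet score were left out. Over all alternative settings the PSC-like values ran from 0.554 to 1.22 for C1qa, 0.536 to 1.29 for C1qb and 0.519 to 1.22 for C1qc. C4b in tumor cell-like cells turned to 1.39 with no integration, and Cfb in PSC-like cells to 0.853 with no upper gene limit and 0.949 with cells classed by their own marker UMIs.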

How the results depend on the processing

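Over the 5 main ratios, 36 of 59 alternative settings moved the value by less than its counting interval and 23 by more, and 0 turned a called direction. Of 36 settings of the called ratios, 33 kept the ratio past 1.5-fold, and the others were C3 in tumor cell-like cells at 0.768 and C4b in PSC-like cells at 1.07 and 1.08. The C3 ratio in tumor cell-like cells (0.551) was 0.600 with no upper gene limit, 0.768 with no integration, 0.576 with cells classed by their own marker UMIs, 0.581 after removal of free RNA by its acinar genes, 0.582 as a mean of per-cell CPM and 0.596 with clusters weighted equally. The Cfb ratio there (0.573) was 0.659 with no integration and 0.626 after removal of free RNA by its acinar genes. The C4b ratio in PSC-like cells was 1.07 with no upper gene limit, 1.08 with cells classed by their own marker UMIs, 2.09 after removal of free RNA by its acinar genes and 1.98 as a mean of per-cell CPM. The Serping1 ratio there was 1.17, 1.43 and 1.24 with no upper gene limit, by own marker UMIs and as a mean of per-cell CPM. The C1q ratio in macrophage/monocyte-like cells was 1.02 with no upper gene limit, 0.997 with no integration, 1.07 without the highest doublet scores, 1.04 by own marker UMIs, 1.05 after removal of free RNA by its acinar genes, 1.02 with the CPM total lacking mitochondrial, ribosomal, acinar and heat shock genes, 1.09 as a mean of per-cell CPM and 1.05 without the low-UMI cluster. With no upper gene limit and by own marker UMIs the PSC-like class grew to 1868 and 2331 and to 1291 and 1171 cells; the cause of the other shifts was not tested. Calls of complement genes were counted over tumor cell-like, PSC-like, macrophage/monocyte-like and neutrophil-like cells only. They numbered 11 at 1.5-fold, 3 at 2-fold and 11 with genes of 20 or more UMIs. At 2-fold C1qb and C5ar1 were lower in tumor cell-like cells, as were 2.77% of all genes, and C5ar1 was higher in PSC-like cells, as were 3.78%. At 20 UMIs, 9.63% of genes were lower in tumor cell-like, 12.3% higher in PSC-like and 12.4% lower in neutrophil-like cells. Of 310 other settings 5 turned a called direction: C5ar1 in tumor cell-like cells to 5.15 after subtraction of free RNA scaled on acinar genes, C5ar1 in PSC-like cells to 0.827 with no upper gene limit, 0.998 without the highest doublet scores and 0.751 by own marker UMIs, and C1qa in neutrophil-like cells to 1.12 by own marker UMIs. Of the same 310 settings, 247 kept the ratio on its side of 1. Where subtracting free RNA left 0 in a library, no ratio was formed and the setting entered none of these counts. By acinar genes this held for C1qa, C1qb, C1qc and C3ar1 in tumor cell-like cells, among others. No paired analysis was possible because each condition had 1 library, and for the same reason no replicate could be left out. Depth limits the receptors outside myeloid cells, and C3, C4b, Cfb, Serping1 and both receptors in B-like and plasma-like cells, where each held under 50 UMIs.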

Other observations

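An unnamed cluster led by Tff1, Gkn1 and Epcam, genes of mucous epithelium, and made of 36 and 61 cells held C3 at 396 CPM in FLOX and 731 CPM in the library labelled MCT1-KO, above every tumor cell-like cluster in both libraries. Its Y-linked level of 178 CPM was like that of host cells. It had no class name by the fixed markers and entered no ratio of a named class, but it was among the sums used for the correlations.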
